A study of Bos taurus with 13 samples.

Results

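Translation turns messenger RNA into protein on ribosomes, and 7 genes of this machinery printed on a bovine mammary cDNA microarray are described here: EIF4G1, EIF5A, AARS1, AIMP1, RPL9, ABCE1 and RSL1D1. They were chosen by gene symbol, out of 706 genes that the platform annotation pairs with a single symbol, and were carried by 9 cDNA clones printed as 3 spots each (27 spots). The choice was made with log ratios of these arrays already known, among them those of RSL1D1 and RPL9 in lactating gland, of AIMP1 in thymus and of EIF5A in adrenal tissue. Values on the lactating and tissue arrays are therefore given as a description. A test over all genes was run on the lactating arrays, and nothing is read from its calls of the 7 genes. All 7 genes passed the filter on missing values and had a value on each of the 13 arrays.

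8 arrays each compared total RNA of 1 tissue with that of the BovMac cell line, the common reference: liver, spleen, lymph tissue, thymus, ileum, adrenal tissue, adipose tissue, and mammary gland from a prepubertal Holstein heifer weighing 136 kg. 2 arrays compared lactating with prepubertal mammary gland, and the prepubertal RNA came from a Holstein heifer of 136 kg on array 1 and of 227 kg on array 2. 2 arrays set the reference line against itself (its name is spelled BovMav on the first) and 1 array set the 136 kg prepubertal gland against that of a postpubertal heifer of 310 kg. Each tissue had 1 array, no treatment is named, and the labels give neither the animals behind the 7 tissues other than mammary gland nor the age of any animal. Whether both lactating arrays used RNA of the same cow is not stated, so the spread between them may be technical.

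Initiation brings the small ribosomal subunit to the messenger cap, elongation adds amino acids that aminoacyl-tRNA synthetases have loaded onto transfer RNA, and recycling splits the ribosome after the protein is released. New ribosomes are assembled in the nucleolus from ribosomal RNA and ribosomal proteins. A lactating gland is known for its large output of secreted protein, and lymphoid organs and intestinal epithelium for rapid cell turnover.

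Values are log ratios of the 2 channels, as deposited and then centred on each array's median. The base of the logarithm and which channel was divided by which are not stated. On the lactating arrays 7 measured milk protein genes all had positive means, led by the casein gene CSN1S1 at 2.09 ± 0.67 (SD, n = 2). The casein genes CSN1S2 (-0.19 on array 1) and CSN3 (-0.16 on array 2) were negative on 1 of the 2 arrays. Positive is called the casein side and was likely the side of lactating RNA. On the tissue arrays the direction was not settled, so every order of tissues given here would run the other way if the sign were turned. The labels put the tissue in channel 2 on those arrays, and the prepubertal gland in channel 2 on the lactating arrays. If every array had the same channel order and positive was the lactating side, positive tissue ratios would lie on the reference side. This was not tested. Ratios of bulk tissue cannot tell fewer cells of a type from less RNA per cell. Of the marker lists, those of T cells, B cells, macrophages, adipocytes, adrenal cells and ileum epithelium had 0 genes on the array, so these labels could not be checked against those markers. The 3 hepatocyte genes had a median of -0.27 on the liver array with both signs among them. Spots of 1 clone had a median SD of 0.06 to 0.10 on the tissue arrays, 0.12 and 0.17 on the lactating arrays, and 0.10 and 0.30 on reference against reference arrays 1 and 2. The mean Spearman rho between spots of a clone was 0.12 on reference against reference array 2 and 0.06 on the postpubertal array, against 0.53 to 0.85 elsewhere.

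RSL1D1 had the most extreme gene values of the 7 in lactating gland, and lay close to 0 in every tissue. ABCE1 had the widest spread over tissues, and in ileum ABCE1 and EIF4G1 lay at least 1 unit from 0 on opposite sides. EIF5A, AARS1, AIMP1 and RPL9 stayed within 0.75 of 0 on all 8 tissue arrays. The 2 clones of EIF5A gave different pictures, and the first EIF4G1 clone lay far from 0 even where the reference was set against itself.

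**Figure D1:**
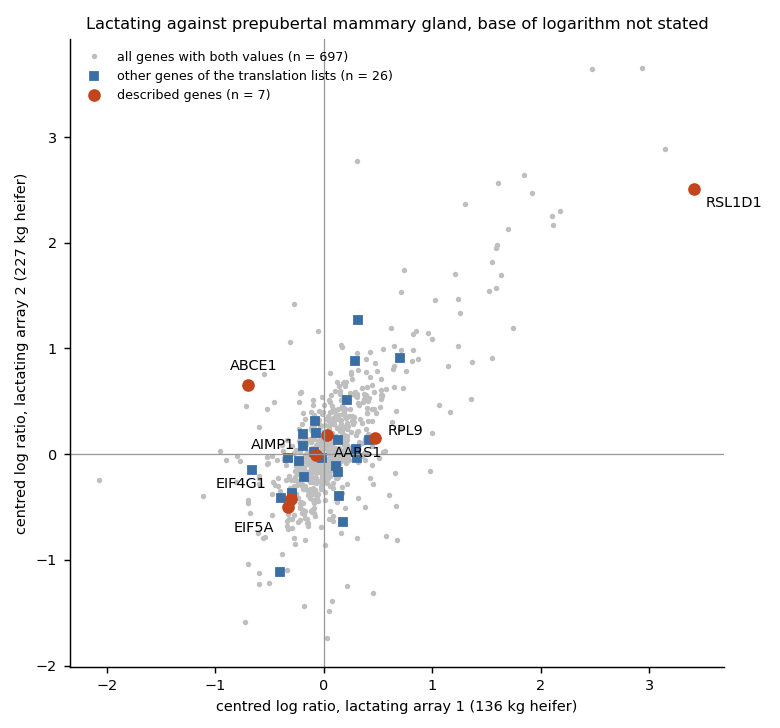
Each point is 1 gene, with its centred log ratio (base not stated) on lactating array 1 on the horizontal axis and on array 2 on the vertical axis. RSL1D1 stands at 3.42 and 2.51 on the casein side of both arrays, ABCE1 has opposite signs, and the other 5 described genes lie within 0.50 of 0.

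RSL1D1 encodes a nucleolar protein with a ribosomal L1 domain that takes part in ribosome biogenesis. Its 3 spots read 3.18, 3.96 and 3.11 on lactating array 1. On array 2 they read 3.25, 3.83 and 0.46. Of these 6 spots, 5 lay above 3 and the last spot of array 2 lay far below the others, which is why the array means, 3.42 ± 0.47 and 2.51 ± 1.80 (SD over 3 spots), differ. The gene's mean was 2.96 ± 0.64 (SD, n = 2 arrays), 1 of the 4 highest among 697 genes, and it ranked highest of 699 genes on array 1. With the median of the spots in place of their mean, the arrays read 3.18 and 3.25.

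The same clone showed no such ratio elsewhere. In the 8 tissues RSL1D1 read 0.25 in liver, 0.19 in spleen, 0.08 in ileum, -0.003 in lymph tissue, -0.01 in adipose tissue, -0.15 in prepubertal mammary gland, -0.23 in thymus and -0.24 in adrenal tissue. Only the step from adipose tissue to mammary gland, 1 of 7 between neighbours in that order, was larger than the SD over spots on either side. The reference against reference arrays gave -0.29 and -0.03, and the postpubertal array -0.13. In the table's row order the clones on either side of RSL1D1 read -0.49 and 0.15 on lactating array 1 and -0.33 and -0.16 on array 2. The next clone but 1, SPTLC1 of sphingolipid synthesis, read 2.11 and 2.26.

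Among the 7 genes, 1 lay at least 1 unit from 0 on lactating array 1 and 1 on array 2, RSL1D1 each time, where 4.58% and 7.57% of all genes did. 1 of 7 did so on the same side of both arrays, against 3.44% of genes. A limma fit over all genes called 1 of 7, RSL1D1, at an adjusted p under 0.05 and 14.8% of genes overall. With arrays scaled to the same median absolute deviation (MAD) limma called 0 of 7. Since the genes were chosen with these values known, nothing is read from these counts. The median over the 7 was -0.02, with both signs among them, beside a median of -2.7e-04 over all genes tested.

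**Figure D2:**
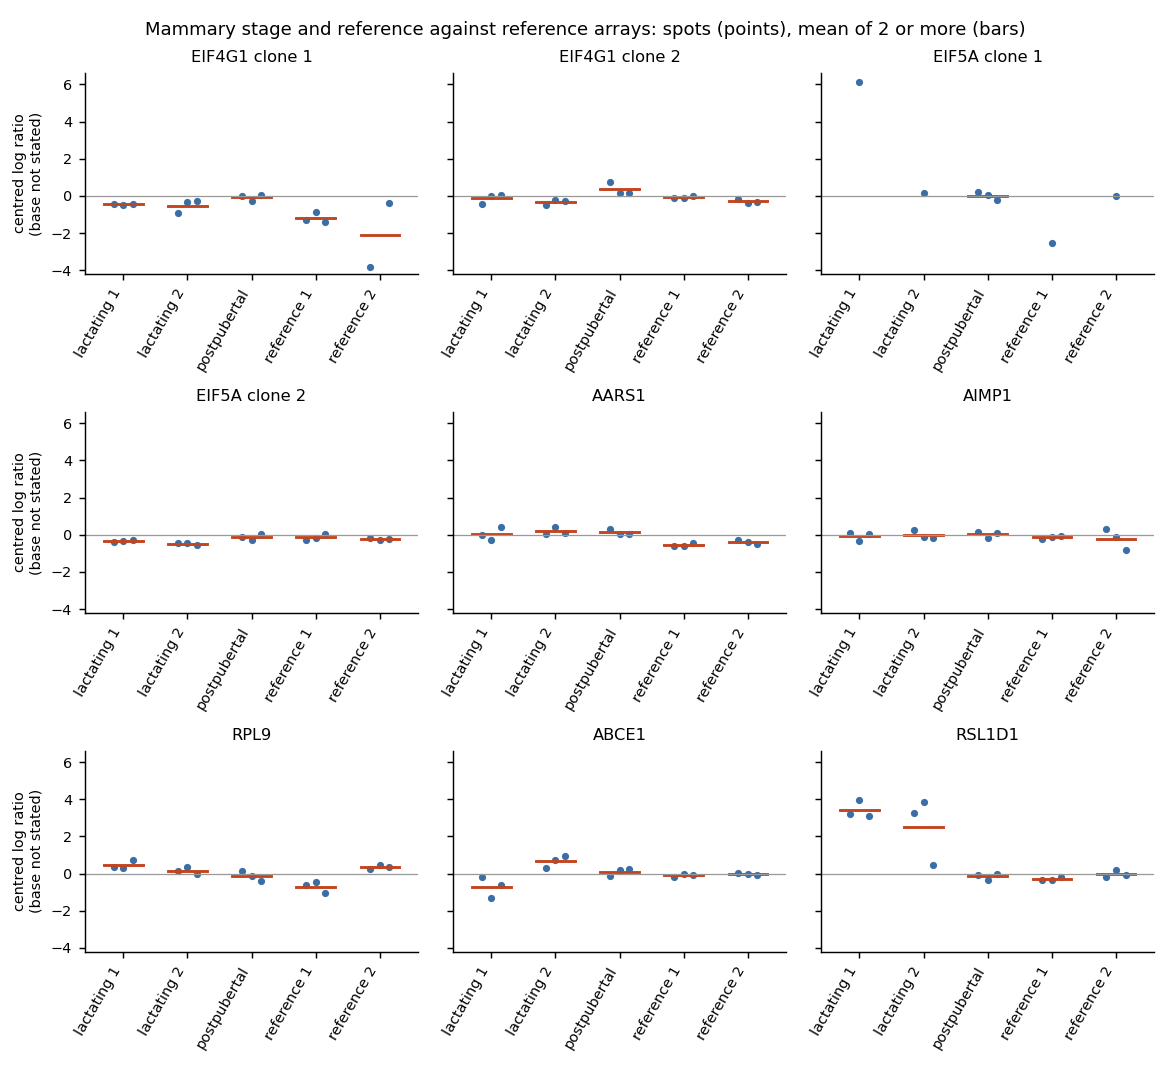
Each panel is 1 clone, each point 1 spot and each bar the mean of 2 or more spots, as centred log ratios (base not stated) on the 2 lactating arrays, the postpubertal array and the 2 reference against reference arrays. Of the arrays plotted RSL1D1 is high on the lactating ones only, clone 1 of EIF5A has a single spot at 6.15 on lactating array 1, and clone 1 of EIF4G1 lies below 0 on both reference against reference arrays.

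ABCE1 encodes an ATPase that splits ribosomes into subunits after termination. Its ileum spots read 1.73, 1.50 and 1.69, a mean of 1.64 ± 0.12 (SD, 3 spots), the 11th most positive of 700 genes there. All 3 spots agreed, and the gap of 0.83 to the next tissue exceeded the SD over spots in both. The other tissues followed with 0.81 ± 0.28 in spleen, 0.51 ± 0.37 in lymph tissue, 0.32 ± 0.03 in liver, 0.26 ± 0.19 in mammary gland, 0.17 ± 0.14 in adipose tissue, -0.12 ± 0.09 in adrenal tissue and -0.19 ± 0.29 in thymus. Apart from ileum, only the step from adipose to adrenal tissue was larger than the spread over spots. Spleen and lymph tissue, where ABCE1 ranked 3 from the top of 702 and 703 genes, did not differ from each other beyond it, and thymus, the other lymphoid organ, lay at the opposite end.

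ABCE1 had opposite signs on the lactating arrays. On array 1, against the 136 kg heifer, its spots read -0.17, -1.31 and -0.62. On array 2, against the 227 kg heifer, they read 0.30, 0.71 and 0.97. The ranges of the 2 arrays do not overlap, and the mean over arrays was -0.02 ± 0.96 (SD, n = 2). Each heifer was on 1 of these arrays, so animal and array cannot be told apart. The clone was quiet where both channels held the same RNA, at -0.08 and -0.02 on the reference against reference arrays with spots between -0.16 and 0.04.

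**Figure D3:**
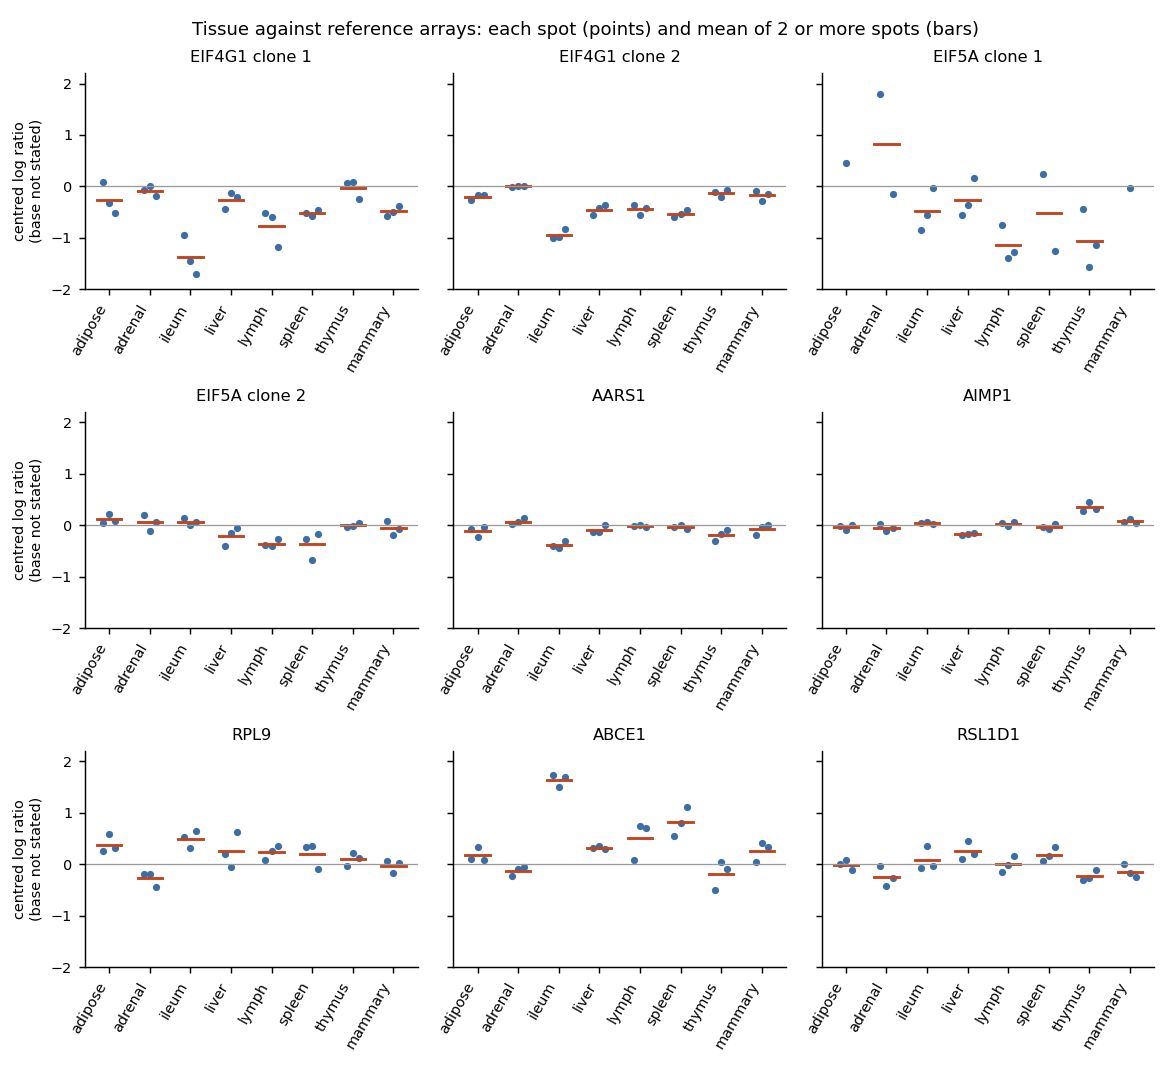
Each panel is 1 clone, each point 1 spot and each bar the mean of 2 or more spots, as centred log ratios (base not stated) on the 8 tissue against reference arrays. ABCE1 is most positive in ileum (1.64), both EIF4G1 clones are most negative there (-1.37 and -0.93), and AIMP1 is most positive in thymus (0.35).

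EIF4G1 encodes the scaffold of the cap-binding complex that recruits the small ribosomal subunit. Its gene value, the mean of 2 clones, was negative in all 8 tissues, at -1.15 in ileum, -0.60 in lymph tissue, -0.53 in spleen, -0.35 in liver, -0.33 in mammary gland, -0.23 in adipose tissue, -0.08 in thymus and -0.04 in adrenal tissue. Both clones had ileum lowest, with spots from -1.71 to -0.94 in clone 1 (mean -1.37 ± 0.39) and from -0.99 to -0.84 in clone 2 (-0.93 ± 0.09). The step to ileum from its neighbour, 0.60 from lymph tissue in clone 1 and 0.40 from spleen in clone 2, exceeded the SD over spots in both clones. Over the 8 tissues the clones had a Pearson r of 0.88, and of 0.67 over the 7 without ileum, with the centring of each array shared.

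On the reference against reference arrays, where a ratio of 0 is the design value, EIF4G1 had the mean farthest from 0 of the 7 genes, while on array 1 alone RPL9 (-0.70) lay farther out than EIF4G1 (-0.63). Clone 1 read -1.28, -0.87 and -1.40 on array 1. On array 2 it had 2 spots, at -3.83 and -0.38. Clone 2 stayed near 0, with spots from -0.11 to -0.02 on array 1 and from -0.37 to -0.19 on array 2. The gene's mean there was -0.91 ± 0.40 (SD, n = 2), and its limma adjusted p was 0.717. Clone 2 was more negative in ileum (-0.93), spleen (-0.53), liver (-0.45) and lymph tissue (-0.44) than on either of these arrays (-0.08 and -0.29). Clone 1 had means of -1.18 on array 1, below every tissue except ileum, and -2.11 on array 2, below every tissue. The part of this displacement in the tissue ratios was not tested.

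In lactating gland EIF4G1 lay on the opposite side to casein, at -0.30 and -0.42 on arrays 1 and 2 (-0.36 ± 0.09, SD, n = 2). Clone 1 gave -0.49 ± 0.04 and clone 2 gave -0.23 ± 0.13. With the reference against reference mean subtracted the gene stood at 0.55, so its side in lactating gland depended on that choice.

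**Figure D4:**
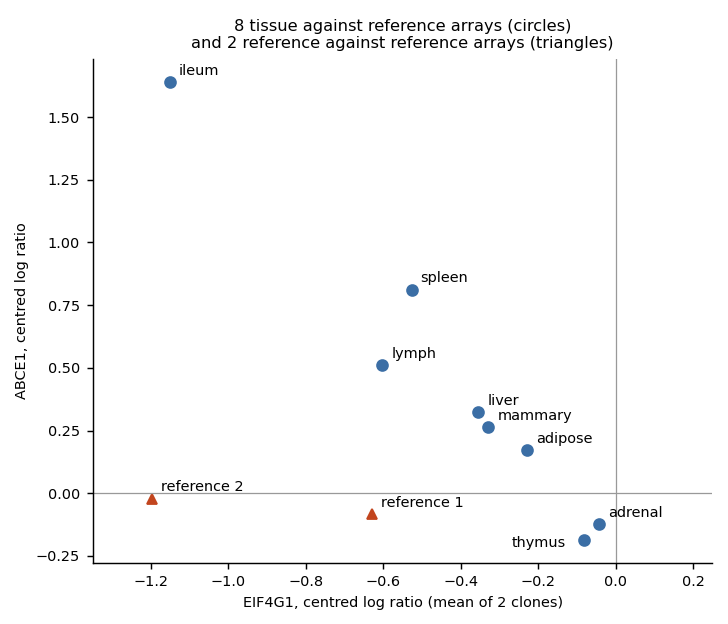
Each circle is 1 of the 8 tissue arrays and each triangle 1 of the 2 reference against reference arrays, with the centred log ratio (base not stated) of EIF4G1 on the horizontal axis and of ABCE1 on the vertical axis. The tissues run from adrenal tissue and thymus, with both genes near 0, to ileum, with EIF4G1 at -1.15 and ABCE1 at 1.64. The reference arrays lie off that line, mostly through clone 1 of EIF4G1 (-1.18 and -2.11, against -0.08 and -0.29 in clone 2).

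ABCE1 and EIF4G1 mirrored each other over the tissues, with a Pearson r of -0.98 over 8 arrays and of -0.93 over the 7 without ileum. Both values on an array share its RNA, hybridisation and centring, and the pair was noticed after the values were seen. On the reference against reference arrays the gene values lay off this relation, with EIF4G1 at -0.63 and -1.20 and ABCE1 at -0.08 and -0.02. The EIF4G1 values there came mostly from clone 1, at -1.18 and -2.11 (the latter from 2 spots). Clone 2 read -0.08 and -0.29. Of the 21 pairs among the 7 genes, 7 had a positive r and 14 a negative one, from -0.98 to 0.67 with a median of -0.25. The genes were chosen with tissue ratios known, so these values are a description only.

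2 of the 7 genes, ABCE1 and EIF4G1, lay at least 1 unit from 0 on the ileum array, where 6% of all genes did. On the other tissue arrays 0 of 7 did, beside 0% of genes in adipose tissue, 0.285% in adrenal tissue, 0.285% in liver, 0.142% in lymph tissue, 0.142% in spleen, 0% in thymus and 0.853% in prepubertal mammary gland. In ileum 4 of 7 genes (EIF4G1, AARS1, RPL9 and ABCE1) lay outside the range of the other 7 tissues, where 48.3% of all genes did, a share near the background. In adrenal tissue 5 of 7 did (EIF4G1, EIF5A, AARS1, RPL9 and RSL1D1), where 31.4% of all genes did. The counts were 2 in liver (AIMP1 and RSL1D1) beside 22.4% of genes, 2 in thymus (AIMP1 and ABCE1) beside 29.9%, and 1 in lymph tissue (EIF5A) beside 18.4%. They were 0 in adipose tissue, spleen and prepubertal mammary gland, beside 9.06%, 19.1% and 21.3%. These counts rest on ratios known when the genes were chosen, and nothing is read from them.

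Markers of several cell types also lay outside the range of the other tissues on the ileum array, where 48.3% of all genes did. All 3 epithelium genes lay above their range over the other tissues, at 1.94 for EPCAM, 0.72 for ELF5 and 0.06 for KRT7. All 4 leukocyte genes did too, at 3.17 for BOLA-DRB3 and 2.41 for CD74, both of antigen presentation by MHC class II, 0.50 for PTPRC and 0.10 for LCP1. The 1 stroma gene, POSTN, lay below its range at -1.52, and of the 2 endothelium genes CAV1 lay below at -0.82 and EMCN above at 0.39. Of the 3 proliferation genes, PCNA at -0.48 and BIRC5 at -0.09 lay below their range and BUB3 at -0.46 within it. Of 6 milk protein genes with a value in every tissue 2 lay above their range, and of 3 hepatocyte genes 1 lay below. In spleen and lymph tissue, where ABCE1 came next after ileum, BOLA-DRB3 read 1.04 and 1.03, and CD74 read 0.19 and 0.48. The other leukocyte genes were negative there, PTPRC at -0.09 and -0.10 and LCP1 at -0.34 and -0.35. The part of these markers in the ileum, spleen and lymph values of ABCE1 and EIF4G1 and in the ileum values of WDR12 and LARS2 was not tested.

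EIF5A, the hypusine-bearing factor that helps ribosomes through difficult stretches and termination, was measured well by 1 of its 2 clones. Clone 2 read -0.37, -0.35 and -0.26 on lactating array 1. It read -0.46, -0.47 and -0.56 on array 2. All 6 spots lay on the side opposite to casein, with a mean of -0.41 ± 0.12 (SD, n = 2 arrays), while the reference against reference arrays gave -0.14 and -0.22. Clone 1 had at least 2 spots with a ratio on 7 of 13 arrays. Its single spot on lactating array 1 stood at 6.15 and its single spot on array 2 at 0.13, neither of which enters the gene value, and on reference against reference array 1 a single spot stood at -2.53.

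Across tissues clone 2 of EIF5A ran from 0.12 ± 0.10 in adipose tissue, 0.07 in ileum, 0.05 in adrenal tissue and -3.4e-04 in thymus through -0.06 in mammary gland and -0.20 in liver to -0.36 ± 0.07 in lymph tissue and -0.37 ± 0.27 in spleen. None of the 7 steps between neighbours exceeded the SD over spots. Clone 1 spread far more, from 0.82 ± 1.38 in adrenal tissue to -1.05 ± 0.57 in thymus and -1.14 ± 0.35 in lymph tissue. The gene value of 0.44 in adrenal tissue, the third highest of 701 genes, came from 2 spots of clone 1 at 1.79 and -0.16, since clone 2 read 0.05. In thymus the clones differed by 1.05, and over the 6 tissues where both had a value their Pearson r was 0.43. Lymph tissue, where the gene value of -0.75 was the lowest of 703 genes, was negative in both clones.

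AARS1, the alanyl-tRNA synthetase, stayed close to the reference in most tissues. It ran from 0.07 ± 0.05 in adrenal tissue to -0.19 ± 0.11 in thymus over the 7 tissues other than ileum, and stood at -0.38 ± 0.07 in ileum. The steps into ileum and out of adrenal tissue were the only ones beyond the SD over spots. In lactating gland it read 0.03 and 0.18 (0.10 ± 0.11, SD, n = 2). The reference against reference arrays gave -0.57 and -0.39, with all 6 spots between -0.62 and -0.26, so both means lay below that of ileum.

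AIMP1, a scaffold protein of the complex that holds several tRNA synthetases together, was most positive in thymus. Its thymus spots read 0.28, 0.46 and 0.32 (0.35 ± 0.10), and the gap of 0.27 to mammary gland at 0.08 exceeded the spread over spots. The other 6 tissues lay between -0.17 ± 0.02 in liver and 0.04 in ileum, and liver was separated from adrenal tissue at -0.04 by more than the spread. In lactating gland AIMP1 was at -0.07 and -0.01, the smallest distance from 0 of the 7 genes on array 2. On reference against reference array 2 its spots ranged from -0.81 to 0.29, wider than its range over tissues.

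RPL9, a protein of the large ribosomal subunit, was the one cytosolic ribosomal protein named by a single symbol on the array. Its order ran from 0.49 ± 0.16 in ileum, 0.38 in adipose tissue, 0.26 in liver, 0.23 in lymph tissue, 0.19 in spleen and 0.11 in thymus to -0.03 in mammary gland and -0.27 ± 0.14 in adrenal tissue. Only the steps from thymus to mammary gland and from there to adrenal tissue exceeded the SD over spots. In lactating gland its spots read 0.37, 0.31 and 0.73 on array 1 and 0.13, 0.34 and -0.02 on array 2, a mean of 0.31 ± 0.23 (SD, n = 2). The reference against itself gave -0.70 on array 1 and 0.37 on array 2, farther from 0 than the lactating mean.

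Over both reference against reference arrays limma called 0 of the 7 genes and 0% of 680 genes at an adjusted p under 0.05. At an unadjusted p under 0.05, limma passed 2 of the 7, EIF4G1 and AARS1, and 6.32% of all genes. On array 1 0 of the 7 lay at least 1 unit from 0, where 0.857% of genes did, and on array 2 1 of the 7 did, EIF4G1, where 3.96% did. All 7 genes had a negative mean on these arrays, from -0.05 for ABCE1 to -0.91 for EIF4G1. The means of RPL9 (-0.16 ± 0.75, SD, n = 2) and RSL1D1 (-0.16 ± 0.19) lay within 1 SD of 0. The share of all genes with a negative mean was not counted, so nothing is read from these signs. On the postpubertal array the 7 genes lay between -0.13 and 0.14.

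The other genes of translation were counted from 7 lists that held 26 measured genes besides the 7. In lactating gland limma passed 3 of the 26 on the casein side, where 11.3% of all genes passed, and 1 on the opposite side, where 3.44% did. Of all genes that passed, 76.7% lay on the casein side, 61.9% on the deposited values without centring and 96.7% with arrays scaled to the same MAD. The 26 genes' median was -0.02. Initiation factors supplied 2 of these out of 5: EIF4B, a helicase cofactor, read 0.32 and 1.27 (0.80 ± 0.67, SD, n = 2) and EIF2B3, a subunit of the exchange factor for eIF2, read 0.29 and 0.88 (0.58 ± 0.42). Both were named after their values were seen. EIF2B3 passed in 0 of 10 other settings, with adjusted p from 0.0686 to 0.807, and EIF4B in 3 of 10, with 0.697 in limma without lactating array 2. 0 of 9 tRNA synthetase genes passed in limma, where 14.8% of all genes did. By limma 3 had an unadjusted p under 0.05, a threshold at which the share of all genes was not counted. Of the 9, 7 means lay on the opposite side and 2 on the casein side, beside a median of -2.7e-04 over all genes. KARS1 (-2.7e-04), IARS2 (-0.03), HARS2 (-0.12) and NARS1 (0.005) had opposite signs on the 2 arrays. The share of all genes on either side was not counted, so nothing is read from this split.

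PDCD4, an inhibitor of the initiation helicase, was the 1 of 3 translation control genes to pass, at 0.70 and 0.91 (0.80 ± 0.15), beside ATF4 at 0.13 and CPEB4 at 0.14 ± 0.24. Of 4 mitochondrial ribosome genes, MRPS35 passed on the opposite side at -0.40 and -1.12 (-0.76 ± 0.51), while MRPL9 (0.28 ± 0.20), MRPL30 (-0.20 ± 0.03) and MRPS33 (-0.15 ± 0.11) did not pass. PDCD4 passed in 5 of 10 other settings and MRPS35 in 4. In limma PDCD4 had an adjusted p of 0.148 without lactating array 1 and 0.406 without array 2, and MRPS35 one of 0.556 without array 2. Neither EEF2K (0.17 ± 0.18), the kinase of elongation factor 2, nor HBS1L (0.06 ± 0.19), a ribosome rescue factor, passed, and 0 of these 2 had an unadjusted p under 0.05 by limma. Among ribosome biogenesis genes RSL1D1 stood alone in size: WDR12 was at -0.40 ± 0.36, SBDS at -0.06 ± 0.19 and nucleolin NCL at -0.02 ± 0.21. By limma 0 of these 3 passed, with 1 at an unadjusted p under 0.05. The share of all genes under that unadjusted p was not counted on the lactating arrays.

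In ileum 2 of the 26 other genes lay at least 1 unit from 0 and in the other 7 tissues 0 did. WDR12, which acts in assembly of the large subunit, stood at 1.80 ± 0.09 (SD over 3 spots) in ileum against -0.21 to 0.16 elsewhere. LARS2, the mitochondrial leucyl-tRNA synthetase, stood at -1.17 in ileum against -0.40 to 0.14. 12 of the 26 were outside the range of the other tissues in ileum, again near the 48.3% of all genes. The median of the 26 in ileum was -0.09 and that of all genes 0.02.

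**Figure D5:**
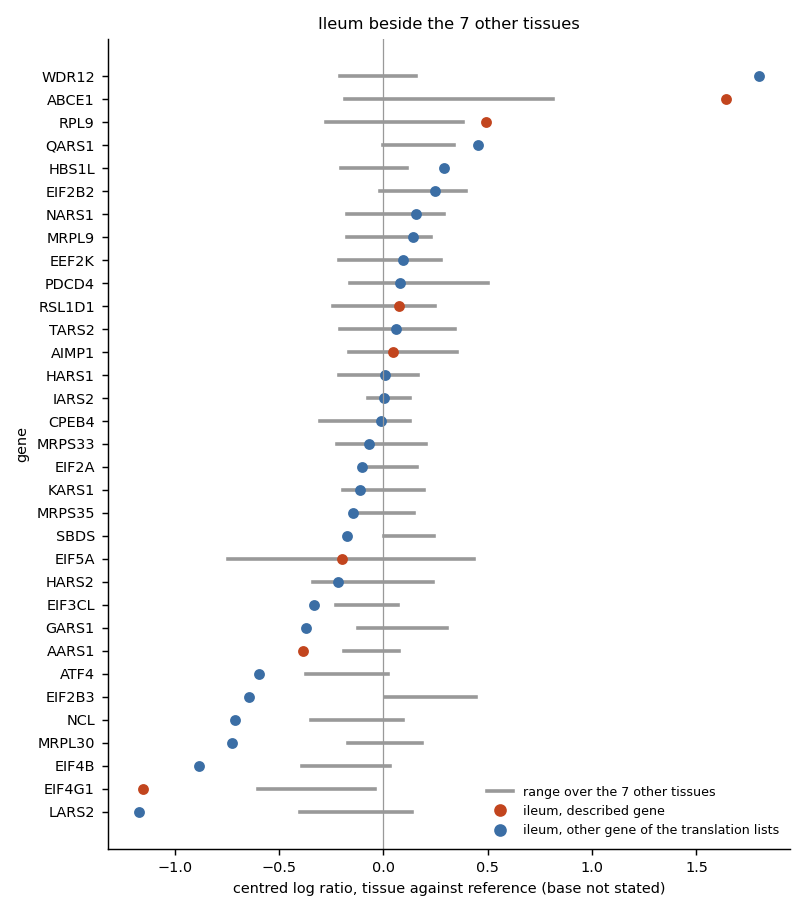
Each row is 1 of the 7 described genes or of the 26 other genes of the translation lists, with its ileum value as a point and its range over the 7 other tissues as a bar, as centred log ratios (base not stated). WDR12 (1.80) and ABCE1 (1.64) lie farthest to the positive side, LARS2 (-1.17) and EIF4G1 (-1.15) farthest to the negative side.

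Over the 8 tissue arrays the genes with the closest pattern among 695 were CAPZA1 (Pearson r 0.96) and MRPL30 (0.96) for EIF4G1, and FNTB (0.97) and VAPA (0.94) for ABCE1. For RSL1D1 they were HMG20B (0.95) and MRPL9 (0.95), and for EIF5A COMMD10 (0.90) and ERLEC1 (0.89). AARS1 was most like PRPF8 (0.93) and ALDH7A1 (0.92), AIMP1 like ACOX2 (0.92) and ACOT9 (0.91), and RPL9 like ARL6 (0.91) and ADGRL4 (0.90). Without ileum AARS1 had an r of 0.75 with PRPF8 and 0.73 with ALDH7A1, while each other gene kept an r of at least 0.84 with both. All values on an array share its RNA and centring, and these are descriptions over 8 points.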

How the data were processed

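RNA was measured by 2-colour hybridisation to a cDNA array of 3888 spots. The authors deposited 1 log ratio per spot, per the labels as a table of 2-channel arrays. Their background correction, normalization, base of the logarithm and dyes were not given in the sources used here. Deposited log ratios had array medians of -0.0997 to 0.0304. An exact 0 was treated as no ratio (124 to 373 spots per array). Arrays were centred on the median, spots of a clone averaged with at least 2 required, features measured on at least 7 arrays kept (1179, naming 703 genes), and the features of a gene averaged. Names came from the platform annotation, and RefSeq gene identifiers (ARS-UCD2.0) gave the same symbol for all 7 genes. The probe sequences were not used here.

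Means of the 2 lactating and of the 2 reference against reference arrays were fitted against 0 over all genes with limma 3.58.1 in R 4.3.3 (lmFit, eBayes, two-sided) and Benjamini-Hochberg adjustment at 0.05. The fit was also run on simulated data with normal noise drawn from its own variance estimates. Such data cannot show how the fit handles outlying spots. A step between tissues was called beyond the spread where it exceeded the larger SD over spots. Other translation genes were named where a mean or tissue ratio reached 1 unit or their list had at most 4, and the 2 most alike genes by Pearson r. Python 3.11.15 with pandas 2.3.3 did the rest. Members and lists were chosen with earlier results of these data known. The number of arrays limits the precision.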

Additional observations from a re-analysis of the deposited data

How the results depend on the processing

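Of the 7 genes, limma called 1 in lactating gland, and 0 with arrays scaled to the same MAD. RSL1D1 was chosen with these values known, so its calls are no measure of stability. The 103 genes called overall became 32 with exact 0 kept as a value, 30 with arrays scaled to the same MAD, 26 with a trended prior, 13 against the mean of the reference arrays and 62 with 1 feature per gene, 48 without lactating array 1 and 22 without array 2. The share of calls on the casein side, 76.7%, ran from 61.9% on the deposited values to 100% with exact 0 kept, a trended prior or the reference arrays subtracted. Over features 136 became 26, 51, 51 and 20 in the first 4 of these settings and 40 and 13 without array 1 and 2. A lactating fit without 1 array took its spread from the reference against reference arrays. The trended prior was fitted on the mean absolute log ratio, the size of the tested effect, and not on signal intensity. The count of gene and tissue values at least 1 unit from 0 was 2, and 1 with arrays scaled to the same MAD or 1 feature per gene. On the reference against reference arrays limma called 1 of the 7 genes, EIF4G1, with arrays scaled to the same MAD. The share of all genes called there under that scaling was not counted. In the other settings that kept both reference arrays it called 0 of the 7. Fits without 1 reference array took their spread from the lactating arrays, and their calls are not given. EIF5A moved most: its lactating mean of -0.41 became 1.36 with at least 1 spot allowed and 0.33 with exact 0 kept, both through the spot at 6.15. Of 63 lactating means under other settings 50 stayed within the SD over arrays, and of 336 tissue ratios 321 stayed within the SD over spots. Leaving out 1 of 2 arrays cannot move a mean beyond that SD. Allowing 1 spot cannot alter a gene with all its spots, and 1 feature per gene cannot alter one with 1 clone. Neither count is therefore a measure of stability. 1 feature per gene in lactating gland, and all settings on the reference against reference arrays, were chosen after seeing the data. No paired analysis was possible because each comparison was made within an array.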
